A study of Homo sapiens with 84 samples.

Results

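The 10 genes described here, PDK4, SESN1, SESN3, DDIT4, TXNIP, KLF6, RBL2, CITED2, TRIB1 and SOD2, are metabolic and stress genes known as targets of the FOXO transcription factors. They were taken by name, and the chromatin accessibility of each was the sum of the counts of all peaks annotated to its symbol within 10 kb of a transcription start site. All 10 members had such peaks, 62 in all, out of 24455 genes with a peak in that window and 861439 peaks in the whole table. The files hold ATAC-seq, where a transposase cuts and tags open DNA, from 78 libraries of 9 triple-negative breast cancer (TNBC) cell lines. Each of the 26 groups was 1 line under 1 treatment with 3 libraries. The combination of tazemetostat, an inhibitor of the histone methyltransferase EZH2, and ipatasertib, an inhibitor of the kinase AKT, was compared with the vehicle DMSO in BT-20, BT-549, HCC1143, HCC1395, HCC1937, MDA-MB-231, MDA-MB-468, SUM-149PT and SUM-159PT. Only MDA-MB-231, MDA-MB-468, SUM-149PT and SUM-159PT also had libraries with tazemetostat alone and with ipatasertib alone. Each agent was used at 5 uM. The schedule, given for MDA-MB-468, started tazemetostat or DMSO on day -5 with passages on days -3 and -1, added ipatasertib on day 0 in medium with 2% FBS, and collected all groups, DMSO included, 24 hours later. A further line, HCC1806, with 6 samples, was not analysed here.

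AKT phosphorylates FOXO proteins and keeps them in the cytoplasm, so inhibition of AKT lets them enter the nucleus and bind a short forkhead motif at their target genes. EZH2 is the catalytic subunit of PRC2, the complex that trimethylates lysine 27 of histone H3 at silenced genes. In breast cells the FOXO targets examined here include the pyruvate dehydrogenase kinase PDK4, which shifts fuel use away from glucose, the sestrins SESN1 and SESN3 and the stress protein DDIT4 (REDD1), which restrain mTORC1, and SOD2, the mitochondrial superoxide dismutase. TXNIP limits glucose uptake and binds thioredoxin, KLF6 is a zinc finger transcription factor, RBL2 (p130) is a pocket protein that represses cell cycle genes, CITED2 binds the coactivators CBP and p300, and TRIB1 is a pseudokinase that directs C/EBP proteins to degradation.

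The promoter sequences of 6 members are shown. These are PDK4, SESN3 and DDIT4, whose windows passed the test across the 9 lines, and TXNIP, CITED2 and KLF6, which held a searched motif. The SESN3 sequence runs past the end of its start peak, at 95232585. Each is the 250 bases upstream of a RefSeq start (GRCh38.p14), read 5′ to 3′ on the strand of the gene, and each start lay inside a deposited peak. Capitals mark the forkhead core GTAAACA (or its reverse complement TGTTTAC) or the E-box CACGTG, searched on both strands; these motifs share no overlap with each other.
PDK4 (chr7:95596517-95596766, minus strand): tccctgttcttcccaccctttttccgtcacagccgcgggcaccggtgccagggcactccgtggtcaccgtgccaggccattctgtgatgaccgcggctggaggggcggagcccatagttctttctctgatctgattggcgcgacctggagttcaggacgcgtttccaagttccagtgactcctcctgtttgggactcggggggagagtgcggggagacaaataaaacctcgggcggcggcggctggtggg
SESN3 (chr11:95232476-95232725, minus strand): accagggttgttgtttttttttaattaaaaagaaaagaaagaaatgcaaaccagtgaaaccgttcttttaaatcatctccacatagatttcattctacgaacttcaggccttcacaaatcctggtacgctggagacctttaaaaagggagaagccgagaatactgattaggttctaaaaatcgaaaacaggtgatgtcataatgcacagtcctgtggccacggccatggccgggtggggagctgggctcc
DDIT4 (chr10:72273674-72273923, plus strand): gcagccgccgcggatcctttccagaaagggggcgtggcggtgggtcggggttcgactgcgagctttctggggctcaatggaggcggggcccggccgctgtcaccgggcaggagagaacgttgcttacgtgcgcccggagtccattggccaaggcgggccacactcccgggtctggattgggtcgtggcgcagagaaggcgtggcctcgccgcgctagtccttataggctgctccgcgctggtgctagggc
TXNIP (chr1:145996580-145996829, minus strand): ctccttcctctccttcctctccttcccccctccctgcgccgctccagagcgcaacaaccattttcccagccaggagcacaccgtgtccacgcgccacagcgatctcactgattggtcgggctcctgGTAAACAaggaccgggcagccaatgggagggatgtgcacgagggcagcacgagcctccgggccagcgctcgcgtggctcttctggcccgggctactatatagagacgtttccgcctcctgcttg
CITED2 (chr6:139374649-139374898, minus strand): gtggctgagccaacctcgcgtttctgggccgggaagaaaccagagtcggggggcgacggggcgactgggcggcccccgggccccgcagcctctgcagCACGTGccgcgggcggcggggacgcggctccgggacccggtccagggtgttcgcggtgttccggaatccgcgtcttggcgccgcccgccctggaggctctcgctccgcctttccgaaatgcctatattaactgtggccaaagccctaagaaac
KLF6 (chr10:3785210-3785459, minus strand): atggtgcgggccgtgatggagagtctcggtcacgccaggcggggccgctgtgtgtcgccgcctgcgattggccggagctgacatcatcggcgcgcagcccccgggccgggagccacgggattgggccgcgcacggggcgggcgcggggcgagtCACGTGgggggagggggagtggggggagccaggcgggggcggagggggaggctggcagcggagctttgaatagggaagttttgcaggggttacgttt
The RefSeq table held 18 promoters of 9 members. The forkhead core was found in 1 of these 18, that of TXNIP, where its first base stood at -124 from the start, and in 1046 of 35116 promoters of the same length over all genes (2.98%). The E-box was found in 2 of the 18, at -153 in CITED2 and at -97 in KLF6, and in 6.34% of all promoters. A match is a description of these letters, and a promoter without one says only that the letters are not in this window.

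Libraries held 12292571 to 21459284 counts in peaks. In 76 of the 78 pairs of libraries within a group the counts differed by no more than sampling noise, so the 3 libraries of a group were summed and counted as 1 sample in all tests across lines, and the line was the replicate. The other 2 pairs both involved HCC1395 DMSO replicate 3. No label says that the 3 libraries came from separate cultures, so tests within a line measure only the spread between these libraries. Levels are given as scaled CPM, the CPM over the counts in peaks after 1 common scaling of all 78 libraries. Overlap of libraries was read for the members only, and how often other genes were free of overlap was not counted. Marker genes of breast epithelium, all 12 with peaks, averaged 1.37 (BT-549) to 12.6 (MDA-MB-468) scaled CPM per kb of peak in DMSO libraries, against 3.18 to 10.7 for the 10 mesenchymal markers and 3.83 to 5.40 for the 12 of 15 fibroblast, endothelial and immune markers that had a peak.

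The members differed widely in how accessible they were without drug. Per kb of peak, the median over the 9 lines of the DMSO level was highest for SESN1 (17.6 scaled CPM per kb), followed by CITED2 (14.3), DDIT4 (14.0), KLF6 (12.02), TRIB1 (11.1) and SESN3 (10.8). It was lower for RBL2 (6.64), PDK4 (6.61), SOD2 (5.24) and TXNIP (4.28). PDK4 varied most between lines, from 3.49 scaled CPM in HCC1395 to 20.9 in MDA-MB-231, a ratio of 5.98. CITED2 varied least, from 33.5 in SUM-149PT to 57.9 in MDA-MB-468. In the order of the 9 lines, 3 of the 8 steps between neighbouring lines were free of overlap for PDK4, 5 for SESN3, 6 for DDIT4 and 4 for SOD2, so several neighbours did not differ beyond the spread of their libraries.

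The window behind each sum was not alike. For PDK4, SESN3 and CITED2 it was a single peak over the start. The peak nearest the start held 95.2% of the counts of SESN1, 77.5% of RBL2, 61.5% of TXNIP, 59.1% of DDIT4, 47.2% of TRIB1 and 24.1% of KLF6, whose 12 peaks spread over the gene and its surroundings. For SOD2 the start used by the deposited annotation lies far upstream of the main SOD2 promoter. The 4 SOD2 peaks within 10 kb surround that upstream start. SESN1 had a further peak over another RefSeq start, at 84646 bases (chr6:109008734-109010173), outside its window. That peak averaged 14.7 scaled CPM (MDA-MB-231 with tazemetostat) to 28.5 (BT-20 with the combination), and the SESN1 sums leave it out. Peaks near PDK4, SESN3, CITED2 and SOD2 that were assigned to a neighbour (PDK4-AS1, LOC100129203, LOC107986651 and ACAT2) were left out of the sums, as the rule asks, and entered as an alternative.

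The first question was whether the combination changed the accessibility of these genes across the 9 lines. It did so for 3 of 10 members: PDK4 and SESN3 rose and DDIT4 fell. In this comparison 10.2% of 24295 tested genes rose and 16.6% fell (edgeR quasi-likelihood test with line as a block, Benjamini-Hochberg adjusted p below 0.05). A count of 3 of 10 is near that of other genes. The median log2 fold of the 10 members was -0.03, against -0.02 for all tested genes. In bulk libraries a change in every cell and a change in the share of cells with open chromatin cannot be told apart.

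PDK4 was the member that rose most. In HCC1395 PDK4 had 6.24, 5.54 and 6.72 scaled CPM in the combination libraries, against 3.73, 3.73 and 3.02 in DMSO libraries. In MDA-MB-468 PDK4 had 6.06, 5.74 and 6.33 with the combination, against 4.57, 3.47 and 4.02 with DMSO. These lines had the lowest levels of PDK4 without drug and the largest ratios to DMSO; the largest differences in scaled CPM were in HCC1143 and SUM-149PT. In SUM-149PT PDK4 had 14.7, 12.05 and 13.6 with the combination, against 8.81, 10.1 and 9.28 with DMSO. In HCC1143 PDK4 had 15.1, 14.1 and 13.5 with the combination, against 9.73, 9.75 and 10.6 with DMSO. In SUM-159PT PDK4 had 12.8, 12.2 and 12.3 with the combination, against 9.14, 8.99 and 10.04 with DMSO. All combination libraries lay above all DMSO libraries in these 5 lines. In HCC1937 PDK4 had 17.4, 17.4 and 16.8 with the combination, against 13.8, 15.9 and 14.7 with DMSO, again with no overlap. In BT-20 PDK4 had 10.01, 9.17 and 10.8 with the combination, against 7.56, 7.72 and 9.33 with DMSO. In BT-549 PDK4 had 11.2, 10.1 and 10.3 with the combination, against 10.5, 9.999 and 8.92 with DMSO. In MDA-MB-231 PDK4 had 21.2, 21.9 and 20.3 with the combination, against 22.1, 19.98 and 20.6 with DMSO. The libraries overlapped in these 3 lines, and MDA-MB-231, the line with the highest PDK4 level, had the smallest difference. Across the 9 lines PDK4 rose 1.30-fold (log2 fold 0.38 ± 0.08 SE, adjusted p = 0.00868), with a positive fold in 9 of 9 lines. Its fold ranged over 0.30 to 0.47 in 22 other settings and passed the test in all 22.

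**Figure D1:**
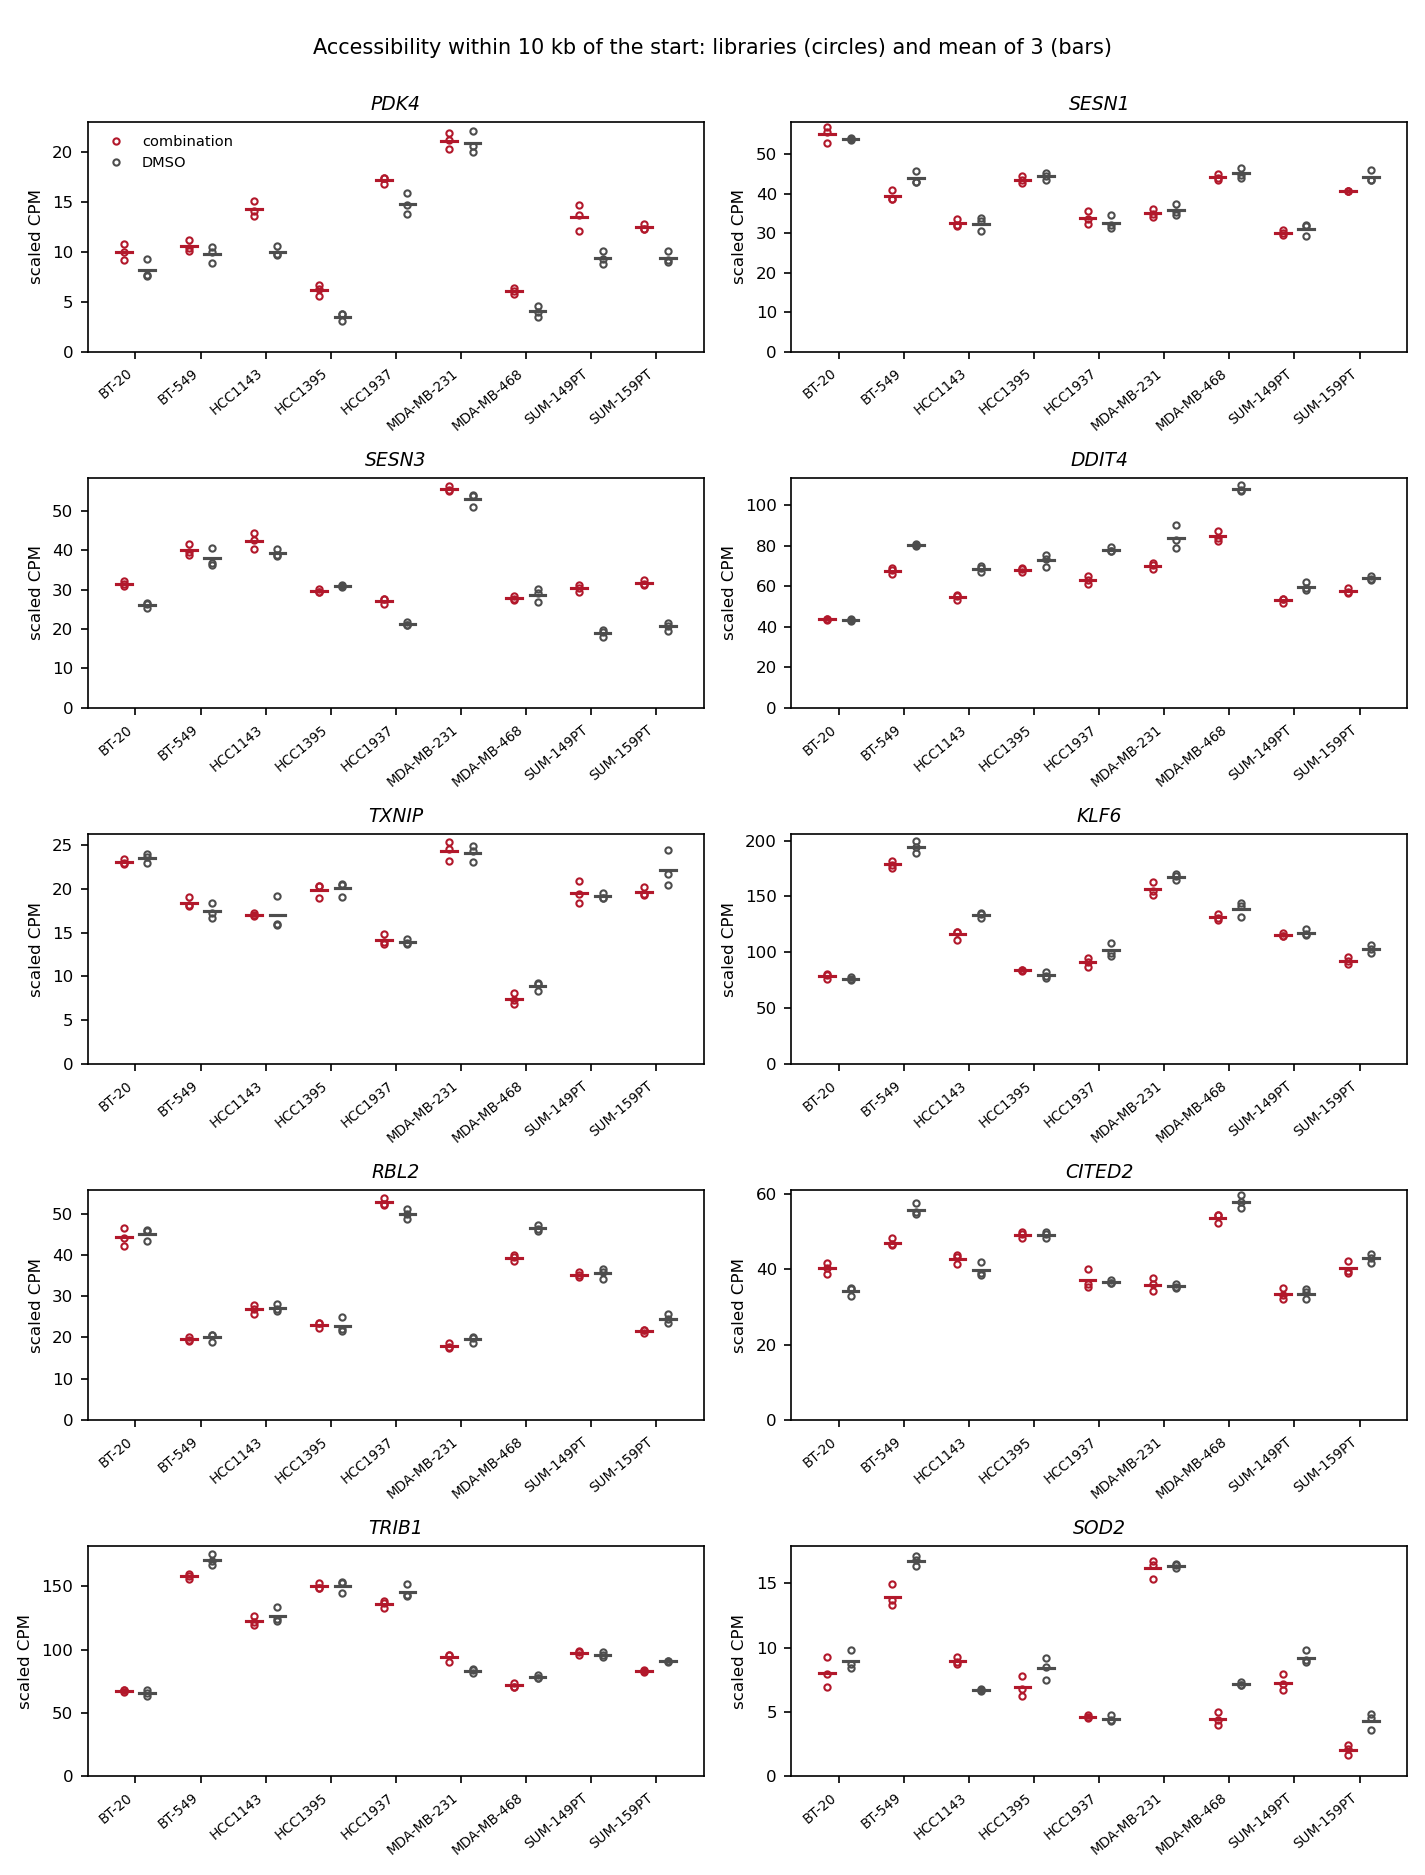
Accessibility within 10 kb of each member in every line, with 1 panel per gene. Circles are single libraries in scaled CPM and bars their means (n = 3), with the combination left of DMSO in each line. PDK4 libraries with the combination lay above all DMSO libraries in 6 lines, and DDIT4 libraries lay below all DMSO libraries in 8. Such separations were not counted for other genes.

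SESN3, a sestrin induced by FOXO that restrains mTORC1 through the GATOR complexes, rose less evenly over the lines. In SUM-149PT SESN3 had 29.4, 31.2 and 30.5 scaled CPM in the combination libraries, against 19.1, 19.7 and 17.9 in DMSO libraries. In SUM-159PT SESN3 had 31.2, 32.4 and 31.3 with the combination, against 19.6, 21.5 and 20.9 with DMSO. In HCC1937 SESN3 had 27.6, 27.6 and 26.5 with the combination, against 21.1, 20.99 and 21.8 with DMSO. These lines had the 3 lowest SESN3 levels without drug, and the groups were far apart. In BT-20 SESN3 had 30.8, 31.4 and 32.1 with the combination, against 26.4, 26.5 and 25.2 with DMSO. In HCC1143 SESN3 had 40.4, 44.4 and 42.6 with the combination, against 38.5, 38.8 and 40.3 with DMSO. In MDA-MB-231 SESN3 had 55.3, 55.1 and 56.4 with the combination, against 51.02, 54.1 and 53.8 with DMSO. The groups did not overlap in these 3 lines, narrowly so in HCC1143 and MDA-MB-231. In BT-549 SESN3 had 41.6, 38.9 and 39.6 with the combination, against 36.9, 36.3 and 40.7 with DMSO. In MDA-MB-468 SESN3 had 27.7, 27.3 and 28.4 with the combination, against 29.03, 30.05 and 26.9 with DMSO. In HCC1395 SESN3 had 29.5, 29.3 and 30.2 with the combination, against 31.1, 30.9 and 30.6 with DMSO. The groups overlapped in BT-549 and MDA-MB-468, and in HCC1395 all combination libraries lay below the DMSO libraries. Across the 9 lines SESN3 rose 1.17-fold (log2 fold 0.23 ± 0.08 SE, adjusted p = 0.0473), close to the threshold. The call was lost without SUM-159PT (0.18, adjusted p = 0.0899), HCC1937 (0.22, 0.0854), SUM-149PT (0.20, 0.0588), BT-20 (0.25, 0.0568) or HCC1143 (0.26, 0.0546), without replicate 1 (0.22, 0.0551) and with scaling to total counts (0.20, 0.0594).

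DDIT4, which inhibits mTORC1 through TSC2 and is induced by energy stress, hypoxia and glucocorticoids, moved the other way. In HCC1143 DDIT4 had 54.97, 53.1 and 55.6 scaled CPM in the combination libraries, against 66.8, 68.8 and 69.97 in DMSO libraries. In HCC1937 DDIT4 had 63.01, 61.1 and 65.2 with the combination, against 79.1, 77.05 and 77.3 with DMSO. In MDA-MB-468 DDIT4 had 83.9, 87.3 and 82.3 with the combination, against 107, 109.9 and 107 with DMSO. MDA-MB-468 had the highest DDIT4 level without drug, and in all 3 lines the groups were separate. In MDA-MB-231 DDIT4 had 71.3, 70.1 and 68.5 with the combination, against 82.6, 90.1 and 78.97 with DMSO. In BT-549 DDIT4 had 69.1, 65.8 and 67.7 with the combination, against 80.6, 79.99 and 80.2 with DMSO. In SUM-149PT DDIT4 had 53.7, 51.6 and 53.5 with the combination, against 59.2, 61.97 and 57.9 with DMSO. The combination libraries were again all below the DMSO libraries. In SUM-159PT DDIT4 had 59.2, 57.05 and 56.6 with the combination, against 63.1, 63.5 and 65.00 with DMSO. In HCC1395 DDIT4 had 66.8, 68.9 and 68.4 with the combination, against 73.5, 75.4 and 69.3 with DMSO. In BT-20 DDIT4 had 43.6, 43.4 and 43.7 with the combination, against 42.8, 43.5 and 43.1 with DMSO. The groups were separate in SUM-159PT and, by little, in HCC1395, and overlapped in BT-20, which had the lowest level of all. Across the 9 lines DDIT4 fell by 0.21 ± 0.04 SE on the log2 scale, to 0.864 of its DMSO level (adjusted p = 0.00509), with a negative fold in 8 of 9 lines. The fall passed the test in all 22 other settings but was smaller with offsets that follow abundance (-0.14, adjusted p = 0.0121) and in peaks within 1 kb (-0.11, adjusted p = 0.00459).

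Promoters of other genes were read beside DDIT4, and they moved in both directions. The share of counts within 1 kb of a start was lower with the combination than with DMSO in 7 of 9 lines (the exceptions were BT-20 and HCC1395), and single libraries held 19.4% to 30.4%. Of 12 housekeeping genes measured 8 fell and 0 rose across the 9 lines, with a median log2 fold of -0.13. Single peaks that lie over a start had a median of -0.10 against -0.01 for all peaks, but of 16682 tested 562 rose and 480 fell. Summed within 1 kb of a start, 2158 of 19488 tested genes rose and 2842 fell, with a median log2 fold of -0.005. The fall of DDIT4 was not called in BT-20, SUM-159PT and HCC1395, where it was called without DMSO replicate 3. The mean share was 22.9% with the combination and 22.6% with DMSO in BT-20, 24.03% with the combination and 23.2% with DMSO in HCC1395, and 20.1% with the combination and 22.7% with DMSO in SUM-159PT, which had a lower share without a called fall. The part of this shift in the fall of DDIT4 was not tested.

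The other 7 members did not pass the test across the 9 lines. SOD2 averaged a log2 fold of -0.24 ± 0.12 SE (adjusted p = 0.161), KLF6 of -0.07 ± 0.03 (0.114) and RBL2 of -0.06 ± 0.03 (0.205). SESN1 had -0.03 (0.361), TXNIP -0.03 (0.570), TRIB1 -0.03 (0.558) and CITED2 -0.01 (0.932). A missed threshold does not show that these windows were unaffected, since lines moved in opposite directions for several of them. SOD2 passed when peaks within 50 kb were summed (-0.12, adjusted p = 0.0394) and when the neighbour's peaks were added to its window (-0.20, adjusted p = 0.0442).

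**Figure D2:**
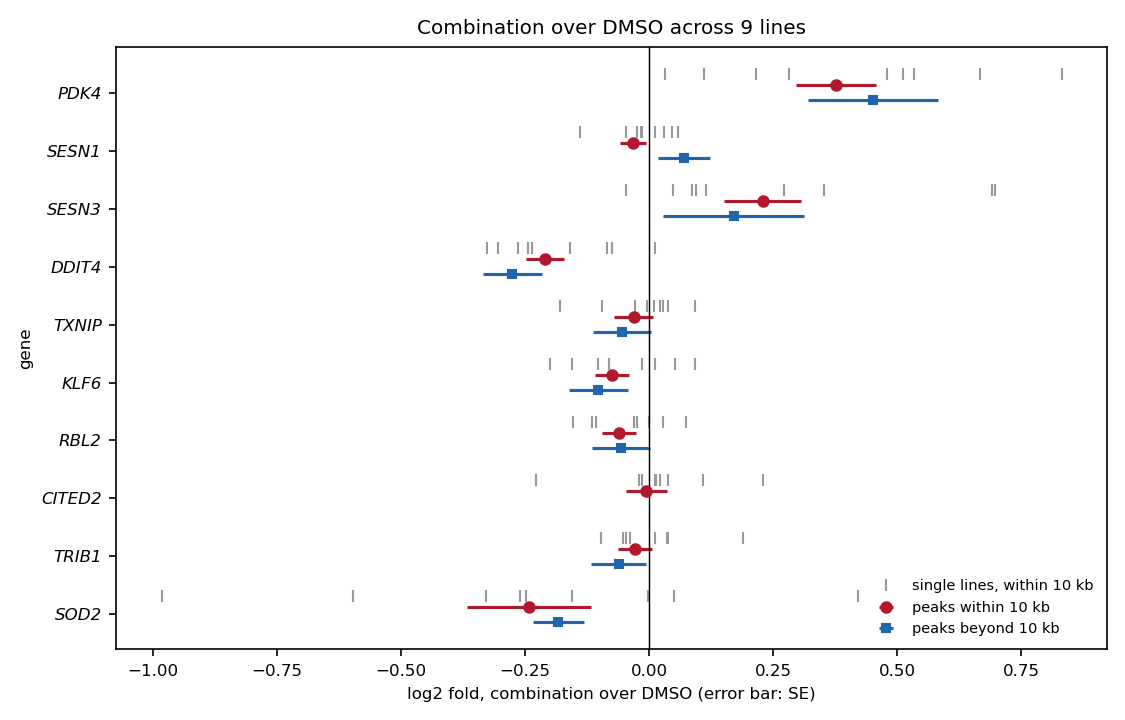
Log2 fold of the combination against DMSO across the 9 lines for each member, with its SE. Red circles sum peaks within 10 kb, blue squares peaks beyond 10 kb, and ticks are single lines. Beyond 10 kb, SOD2 includes its main promoter peak and SESN1 a peak over another start. PDK4 stands at 0.38 and DDIT4 at -0.21 within 10 kb, and the single lines of SOD2 spread from -0.98 to 0.42.

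Within single lines, the combination changed 35 of 90 pairs of line and member, with 15 that rose and 20 that fell. These tests rest on the spread between 3 libraries, and among all genes tested in a line many passed: 21.4% in BT-20, 43.5% in BT-549, 33.6% in HCC1143, 30.2% in HCC1395, 29.1% in HCC1937, 25.2% in MDA-MB-231, 48.2% in MDA-MB-468, 27.5% in SUM-149PT and 49% in SUM-159PT. The share of member pairs called lay within the range of these values. PDK4 rose in 7 of 9 lines, from a log2 fold of 0.22 in HCC1937 to 0.83 in HCC1395, where it was 0.73 without DMSO replicate 3. SESN3 rose in 4 lines, by 0.70 in SUM-149PT, 0.69 in SUM-159PT, 0.35 in HCC1937 and 0.27 in BT-20. DDIT4 fell in 6 lines, from -0.33 in HCC1143 to -0.16 in SUM-149PT, and in HCC1395 its -0.08 (adjusted p = 0.0774) became -0.13 (adjusted p = 0.00702) without DMSO replicate 3. No TXNIP window passed in any line by the edgeR test, which covers 9 tests of that gene with folds of -0.18 to 0.09.

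SOD2 was the member whose lines parted most. In SUM-159PT SOD2 had 2.14, 1.61 and 2.43 scaled CPM in the combination libraries, against 4.79, 4.53 and 3.59 in DMSO libraries. In MDA-MB-468 SOD2 had 4.37, 4.98 and 3.98 with the combination, against 7.06, 7.07 and 7.28 with DMSO. In SUM-149PT SOD2 had 7.94, 7.13 and 6.73 with the combination, against 8.99, 9.78 and 8.89 with DMSO. SOD2 fell in these 3 lines, with log2 folds of -0.98 (adjusted p = 7.4e-07), -0.60 (2.59e-06) and -0.33 (0.0049), and the libraries did not overlap. In BT-549 SOD2 had 13.3, 14.9 and 13.7 with the combination, against 17.1, 16.8 and 16.4 with DMSO. In HCC1143 SOD2 had 9.27, 8.72 and 8.89 with the combination, against 6.74, 6.63 and 6.70 with DMSO. It fell in BT-549 (-0.25, adjusted p = 0.00137) and rose in HCC1143 (0.42, adjusted p = 0.00123), where all combination libraries were above all DMSO libraries. In HCC1395 SOD2 had 6.24, 7.82 and 6.79 with the combination, against 9.22, 8.48 and 7.49 with DMSO, and its fold of -0.26 (adjusted p = 0.0778) became -0.34 (adjusted p = 0.0153) without DMSO replicate 3. The groups overlapped there. In BT-20 SOD2 had 7.93, 6.95 and 9.23 with the combination, against 8.68, 9.77 and 8.39 with DMSO. In HCC1937 SOD2 had 4.78, 4.50 and 4.62 with the combination, against 4.35, 4.30 and 4.73 with DMSO. In MDA-MB-231 SOD2 had 15.3, 16.4 and 16.8 with the combination, against 16.4, 16.5 and 16.2 with DMSO. The libraries of these last lines overlapped. All SOD2 values describe the upstream window, which holds few counts.

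KLF6 fell in 5 lines, with log2 folds of -0.20 in HCC1143, -0.15 in HCC1937, -0.10 in BT-549 and -0.08 in both MDA-MB-231 and SUM-159PT. It rose in HCC1395 (0.09, adjusted p = 0.0273), a call lost without DMSO replicate 3 (0.08, adjusted p = 0.104). CITED2 went opposite ways in a pair of lines. In BT-20 CITED2 had 38.7, 40.4 and 41.5 scaled CPM with the combination, against 32.8, 35.05 and 34.9 with DMSO (log2 fold 0.23, adjusted p = 4.61e-05). In BT-549 CITED2 had 46.6, 46.4 and 48.3 with the combination, against 54.7, 55.1 and 57.6 with DMSO (log2 fold -0.23, adjusted p = 2.34e-08). The libraries did not overlap in either line. TRIB1 rose in MDA-MB-231, where it had 96.03, 95.6 and 89.97 with the combination, against 83.8, 84.2 and 81.7 with DMSO (log2 fold 0.19). The TRIB1 groups were separate in MDA-MB-231, and TRIB1 fell by 0.10 on the log2 scale in both BT-549 and HCC1937. RBL2 passed in 1 line, MDA-MB-468, where it fell (-0.15), with 38.4, 40.03 and 39.4 scaled CPM with the combination, against 47.3, 45.8 and 46.3 with DMSO. SESN1 passed in 1 line, BT-549, where it fell (-0.14), with 38.7, 38.7 and 40.9 scaled CPM with the combination, against 42.9, 42.99 and 45.9 with DMSO. The groups of RBL2 and SESN1 did not overlap in these lines.

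The difference of the response between lines was tested directly, with an F test of the line-by-treatment terms in edgeR over the libraries. It passed for 9 of 10 members, where 73.7% of 23674 tested genes passed, so a member that passed is not unlike other genes. The adjusted p was lowest for SESN3 (6.39e-27), CITED2 (4.02e-12) and SOD2 (1.88e-12) and did not pass for TXNIP (0.0764). The common scaling of the levels differs from the scaling within the line by -0.0909 in MDA-MB-468 and -0.0765 in SUM-159PT on the log2 scale, so levels there look lower with the combination than the fold within the line. This affects SESN1, SESN3 and KLF6 in MDA-MB-468, whose levels were lower on average with the combination while their folds within the line were 0.06, 0.05 and 0.01, and DDIT4 in SUM-159PT, whose libraries were separate while its fold of -0.07 did not pass (adjusted p = 0.113).

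**Figure D3:**
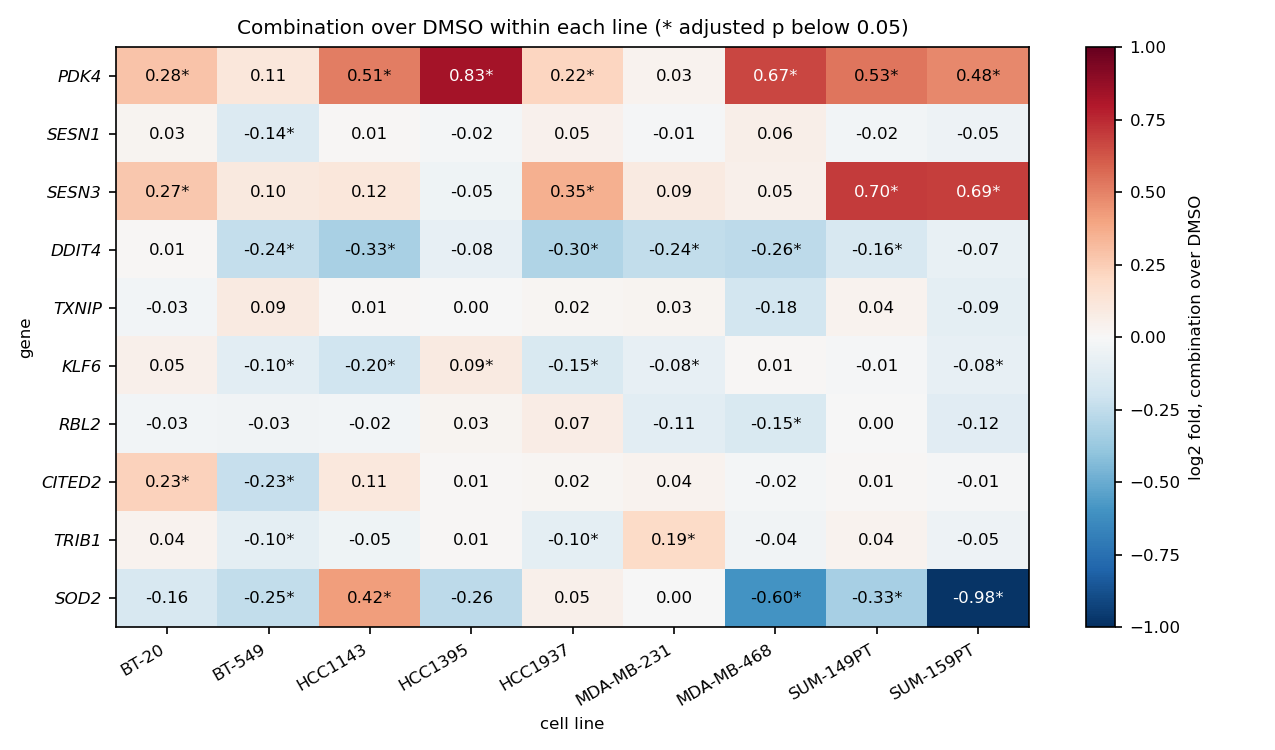
Log2 fold of the combination against DMSO within each line (columns) for each member (rows), in red where higher and blue where lower, with a star where the adjusted p was below 0.05. The PDK4 row is positive in all 9 lines, the DDIT4 row negative in 8, and the SOD2 row runs from -0.98 in SUM-159PT to 0.42 in HCC1143.

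The second question was which agent went with these changes, and it could be asked in the 4 lines with all treatments. Across these lines tazemetostat alone lowered 3 of 10 members, DDIT4, RBL2 and SESN1, where 28.5% of 24002 tested genes passed. The combination changed 3, PDK4 upward and DDIT4 and SOD2 downward, where 19.7% passed. With 10 members, neither count stands apart from that of other genes. Ipatasertib alone changed 0 members and 0 genes (0%) by the edgeR test, with 539 genes and 0 members at an unadjusted p below 0.05, and DESeq2 also called 0. These 539 genes are fewer than the share of 0.05 that no effect would give. The test was therefore conservative, and 0 calls do not show that ipatasertib had no effect. Within single lines tazemetostat changed 13 of 40 pairs of line and member (6 rose and 7 fell), where 25.8% of genes passed in MDA-MB-231, 54.3% in MDA-MB-468, 26.7% in SUM-149PT and 49.7% in SUM-159PT. Within single lines ipatasertib changed 3 of 40 pairs, all falls, where 0.172% of genes passed in MDA-MB-231, 6.87% in MDA-MB-468, 4.97% in SUM-149PT and 0.767% in SUM-159PT. The 3 were KLF6 in MDA-MB-231 (-0.11, adjusted p = 0.00679) and in MDA-MB-468 (-0.12, 6.87e-05) and DDIT4 in MDA-MB-468 (-0.09, 0.0123). In MDA-MB-231 KLF6 had 152, 160.3 and 155 scaled CPM with ipatasertib, against 168, 169.9 and 165 with DMSO, and the groups did not overlap. In MDA-MB-468 KLF6 had 129, 128 and 135 with ipatasertib, against 131, 144 and 141 with DMSO, and the groups overlapped. All comparisons with DMSO share the same DMSO libraries.

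PDK4 had a positive fold with each agent. In SUM-149PT PDK4 had 11.7, 11.5 and 12.8 scaled CPM with tazemetostat and 10.8, 11.3 and 11.4 with ipatasertib, against 8.81, 10.1 and 9.28 with DMSO. In SUM-159PT PDK4 had 10.8, 9.80 and 9.69 with tazemetostat and 10.2, 10.4 and 10.5 with ipatasertib, against 9.14, 8.99 and 10.04 with DMSO. In MDA-MB-468 PDK4 had 4.51, 4.17 and 3.89 with tazemetostat and 5.46, 4.54 and 4.48 with ipatasertib, against 4.57, 3.47 and 4.02 with DMSO. Only SUM-149PT under tazemetostat, and SUM-149PT and SUM-159PT under ipatasertib, were free of overlap. In MDA-MB-231 PDK4 had 22.2, 22.4 and 21.4 with tazemetostat and 22.4, 22.5 and 21.5 with ipatasertib, against 22.1, 19.98 and 20.6 with DMSO. Both agents overlapped with DMSO in MDA-MB-231. The log2 fold across the 4 lines was 0.40 ± 0.09 SE for the combination (adjusted p = 0.0136), 0.17 ± 0.09 for tazemetostat (0.160) and 0.17 ± 0.09 for ipatasertib (1). The combination call was lost without MDA-MB-468 (0.33, adjusted p = 0.0580), SUM-149PT (0.37, 0.0670) or SUM-159PT (0.37, 0.101). PDK4 with the combination exceeded the sum of the single agents by 0.06 ± 0.13 on the log2 scale, which did not pass the test.

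SESN3 had higher values with tazemetostat than with ipatasertib in 3 of the 4 lines. In SUM-149PT SESN3 had 26.7, 27.3 and 28.6 scaled CPM with tazemetostat and 19.3, 22.4 and 20.5 with ipatasertib, against 19.1, 19.7 and 17.9 with DMSO. In SUM-159PT SESN3 had 28.6, 29.8 and 28.9 with tazemetostat and 22.4, 20.3 and 22.5 with ipatasertib, against 19.6, 21.5 and 20.9 with DMSO. All tazemetostat libraries lay above the DMSO libraries in both lines, and the ipatasertib libraries overlapped with them. In MDA-MB-231 SESN3 had 56.9, 60.1 and 57.9 with tazemetostat and 52.8, 52.3 and 51.8 with ipatasertib, against 51.02, 54.1 and 53.8 with DMSO. In MDA-MB-468 SESN3 had 25.1, 25.03 and 24.3 with tazemetostat and 30.5, 30.1 and 30.2 with ipatasertib, against 29.03, 30.05 and 26.9 with DMSO. Tazemetostat libraries were above DMSO in MDA-MB-231 and below DMSO in MDA-MB-468, where the fold within the line was -0.10 (adjusted p = 0.0945). Within lines SESN3 rose with tazemetostat by 0.57 in both SUM-149PT and SUM-159PT (adjusted p = 4.37e-18 and 1.26e-18) and by 0.16 in MDA-MB-231 (0.00126). Across the 4 lines none of its folds passed: 0.35 ± 0.13 SE for the combination (adjusted p = 0.0729), 0.26 ± 0.13 for tazemetostat (0.137) and 0.06 ± 0.13 for ipatasertib (1).

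DDIT4 was lower with tazemetostat in every one of the 4 lines. In MDA-MB-468 DDIT4 had 84.5, 85.1 and 87.7 scaled CPM with tazemetostat and 105, 103 and 102 with ipatasertib, against 107, 109.9 and 107 with DMSO. In MDA-MB-231 DDIT4 had 72.5, 69.5 and 68.5 with tazemetostat and 81.6, 79.7 and 77.9 with ipatasertib, against 82.6, 90.1 and 78.97 with DMSO. Tazemetostat libraries lay below all DMSO libraries in both lines, and the ipatasertib libraries were higher than these, below DMSO in MDA-MB-468 and overlapping with DMSO in MDA-MB-231. In SUM-149PT DDIT4 had 55.99, 53.98 and 52.8 with tazemetostat and 55.1, 56.4 and 55.6 with ipatasertib, against 59.2, 61.97 and 57.9 with DMSO. In SUM-159PT DDIT4 had 58.5, 57.8 and 57.7 with tazemetostat and 59.05, 59.4 and 62.8 with ipatasertib, against 63.1, 63.5 and 65.00 with DMSO. Tazemetostat libraries were separate from DMSO in 4 of 4 lines and ipatasertib libraries in 3 of 4, a count that was not made for other genes. Within lines the tazemetostat fall passed in MDA-MB-231, MDA-MB-468 and SUM-149PT and the ipatasertib fall in MDA-MB-468. Under tazemetostat the common scaling lies below the scaling within the line, by -0.1055 in MDA-MB-468 and -0.0783 in SUM-159PT on the log2 scale, and in SUM-159PT the fold within the line was -0.06 (adjusted p = 0.186). The log2 fold across the lines was -0.21 ± 0.04 SE for the combination (adjusted p = 0.00917), -0.19 ± 0.04 for tazemetostat (0.00919) and -0.08 ± 0.04 for ipatasertib (1). The combination was also lower than ipatasertib alone by the edgeR test (-0.13, adjusted p = 0.0412), the 1 of 10 members called where 24% of genes passed. That call was lost without each of the 4 lines, with values of -0.10 without MDA-MB-231 (adjusted p = 0.0601), -0.09 without MDA-MB-468 (0.138), -0.14 without SUM-149PT (0.0526) and -0.18 without SUM-159PT (0.0847). The combination call on DDIT4 was lost without SUM-159PT (-0.25, adjusted p = 0.0514). With offsets that follow abundance the tazemetostat fall was -0.09 (adjusted p = 0.143) and the combination fall -0.12 (adjusted p = 0.0632), neither of which passed. Over the same 4 lines, the mean share of counts within 1 kb of a start was 20.1% to 24.5% with the combination, 19.5% to 23.9% with tazemetostat, 23.0% to 26.5% with ipatasertib and 22.7% to 26.3% with DMSO, and the part of that shift in the falls was not tested.

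RBL2 and SESN1 passed with tazemetostat alone, by small amounts. In SUM-159PT RBL2 had 19.6, 19.4 and 19.99 scaled CPM with tazemetostat, against 23.6, 25.7 and 24.5 with DMSO. In MDA-MB-468 RBL2 had 40.4, 39.01 and 38.4 with tazemetostat, against 47.3, 45.8 and 46.3 with DMSO. The groups were separate in these 2 lines and overlapped in the other two. RBL2 fell by 0.15 ± 0.05 SE across the 4 lines on the log2 scale (adjusted p = 0.0444), a call lost without MDA-MB-231 (-0.15, adjusted p = 0.0881), MDA-MB-468 (-0.12, 0.199) or SUM-159PT (-0.11, 0.220). SESN1 fell by 0.09 ± 0.03 (adjusted p = 0.0243), a call lost without each of the lines, with values of -0.08 without MDA-MB-231 (adjusted p = 0.167), -0.08 without MDA-MB-468 (0.0998), -0.07 without SUM-149PT (0.158) and -0.10 without SUM-159PT (0.0954). Within single lines SESN1 did not pass with tazemetostat in any line, with log2 folds from -0.077 in MDA-MB-231 to -0.052 in MDA-MB-468. All were smaller in size than its fold across the lines, and the part of the scaling in that difference was not tested. With offsets that follow abundance RBL2 had -0.06 (adjusted p = 0.326) and SESN1 had -0.002 (adjusted p = 0.969). With scaling to total counts the members called numbered 6 under tazemetostat, 6 under the combination and 4 for the combination against ipatasertib. That scaling moved all genes: of the genes called, 18.6% rose under tazemetostat, 18.8% under the combination and 20.4% in the combination against ipatasertib, where the scaling used here gave 34.4%, 37.1% and 36.3%. The median log2 fold of all genes was then -0.12 under tazemetostat and -0.11 under the combination.

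SOD2 fell with the combination across the 4 lines (log2 fold -0.48 ± 0.15 SE, adjusted p = 0.0415). In SUM-159PT SOD2 had 2.97, 1.89 and 2.37 scaled CPM with tazemetostat and 3.78, 3.19 and 3.63 with ipatasertib, against 4.79, 4.53 and 3.59 with DMSO. In MDA-MB-468 SOD2 had 4.90, 4.62 and 3.998 with tazemetostat and 6.24, 7.33 and 6.74 with ipatasertib, against 7.06, 7.07 and 7.28 with DMSO. The tazemetostat libraries were below all DMSO libraries in both. In SUM-149PT SOD2 had 9.38, 8.53 and 8.01 with tazemetostat and 9.28, 8.43 and 8.30 with ipatasertib, against 8.99, 9.78 and 8.89 with DMSO. In MDA-MB-231 SOD2 had 18.2, 17.5 and 17.4 with tazemetostat and 17.7, 17.7 and 19.1 with ipatasertib, against 16.4, 16.5 and 16.2 with DMSO. Here both agents gave values above DMSO, without overlap, while SUM-149PT overlapped. The single agents gave -0.33 ± 0.15 for tazemetostat (adjusted p = 0.112) and -0.08 ± 0.15 for ipatasertib (1). The combination call was lost without MDA-MB-468 (-0.41, adjusted p = 0.147), SUM-149PT (-0.53, 0.0920) or SUM-159PT (-0.33, 0.188) and without replicate 1 (-0.47, 0.0587) or replicate 2 (-0.44, 0.0506). Without SUM-159PT the combination changed 0 of 10 members by the edgeR test, with 3 at an unadjusted p below 0.05.

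**Figure D4:**
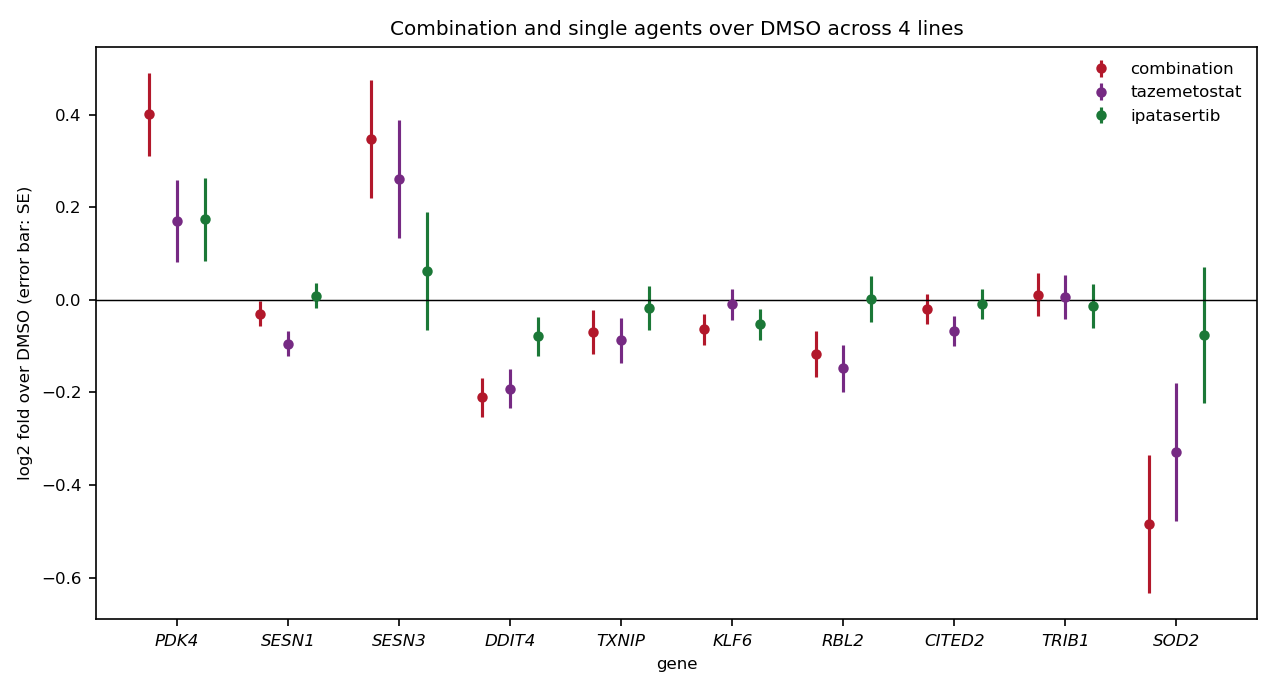
Log2 fold against DMSO across the 4 lines with all treatments for each member, with SE, for the combination, tazemetostat and ipatasertib. PDK4 stands at 0.40 with the combination and at 0.17 with each single agent; DDIT4 stands at -0.21, -0.19 and -0.08.

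Adding tazemetostat to ipatasertib (the combination against ipatasertib) changed 24% of 24002 tested genes across the 4 lines, with 2091 that rose and 3667 that fell, and DDIT4 alone of the members, which fell. In the other direction, the combination against tazemetostat alone changed 0 of 10 members and 0 genes (0%) by the edgeR test, with 1043 genes at an unadjusted p below 0.05, and DESeq2 called 2 genes and 0 members. PDK4 (0.23, unadjusted p = 0.0235) and SESN1 (0.06, unadjusted p = 0.0336) were the 2 members at an unadjusted p below 0.05, and neither passed after adjustment. For departure from the sum of the single agents, edgeR called 0 members and 0 genes (0%), with 64 genes at an unadjusted p below 0.05, and DESeq2 called 0 with 52. The 64 and the 1043 genes are each fewer than the share of 0.05 that no effect would give. Both tests were therefore conservative. Their 0 calls do not show that the agents add up or that ipatasertib added nothing to tazemetostat. The folds of departure had SEs of 0.04 (SESN1) to 0.21 (SOD2), which sets how small a departure could be seen.

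Single peaks showed where in each window the changes lay. Of 736873 peaks tested across the 9 lines 3.72% were called. Of 60 member peaks tested within 10 kb, 5 fell and 0 rose by the edgeR test, with 18 at an unadjusted p below 0.05. Without replicate 2 the number called was 3. Folds within 10 kb were below 0 in 9 of 9 tested peaks of DDIT4, 12 of 12 of KLF6, 4 of 4 of SOD2, 10 of 15 of TRIB1, 5 of 9 of TXNIP, 3 of 4 of RBL2 and 3 of 4 of SESN1. The single peak of CITED2 was below 0 and those of PDK4 and SESN3 were above 0. Of all tested peaks within 10 kb of a start 57.1% were below 0. These signs depend on the scaling of the peaks, under which peaks over a start had a median log2 fold of -0.10. Summed within 1 kb under the scaling of the gene sums, KLF6 had a positive fold. Peaks of the same gene are also not independent of each other. The single start peak of PDK4 (chr7:95595744-95597165, as deposited) had 0.31 ± 0.09 SE in this test (adjusted p = 0.0561), which scales peaks separately and adjusts over all peaks.

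Within 10 kb, the calls on DDIT4 lay downstream of its start. The start peak (chr10:72272547-72274447) had a log2 fold of -0.18 (adjusted p = 0.0882). The 4 peaks downstream fell, at 671 bases (-0.36, adjusted p = 0.0427), 2575 bases (-0.53, 0.0138), 3329 bases (-1.19, 0.00127) and 4445 bases (-0.64, 0.0280) from the start. The peak at 3329 bases (chr10:72277248-72277576) averaged 2.85 scaled CPM with the combination and 4.798 with DMSO in BT-549, and 2.69 with the combination and 5.42 with DMSO in HCC1937. It averaged 1.79 with the combination and 4.55 with DMSO in MDA-MB-468, and 0.373 with the combination and 1.99 with DMSO in HCC1143. In BT-20, where DDIT4 did not fall, it was barely open, at 0.364 with the combination and 0.375 with DMSO. Beyond 10 kb, 7 of 19 tested DDIT4 peaks also fell, the largest at 31623 bases (chr10:72305542-72305846, -0.84, adjusted p = 0.0181). The other fall within 10 kb was a peak upstream of RBL2, at -1990 bases from its start (chr16:53431685-53431987), with a fold of -0.92 (adjusted p = 0.0226), annotated as promoter. It averaged 0.471 scaled CPM with the combination and 1.83 with DMSO in MDA-MB-468. It averaged 1.47 with the combination and 2.52 with DMSO in SUM-159PT, and 2.04 with the combination and 2.49 with DMSO in HCC1937, where the libraries overlapped. It was under 0.40 in both groups in 6 lines.

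Beyond 10 kb, 227 member peaks were tested, and 2 rose and 14 fell. Of all 736873 tested peaks 16853 rose and 10529 fell. The member peaks named here were chosen after their values were seen. One rise was a peak upstream of PDK4, at -46411 bases (chr7:95642130-95642927, annotated as distal intergenic), with a log2 fold of 1.01 ± 0.20 SE (adjusted p = 0.00883). It averaged 3.55 scaled CPM with the combination and 0.694 with DMSO in SUM-159PT, and 1.83 with the combination and 0.753 with DMSO in HCC1143. It was level in BT-20 (0.635 with the combination, 0.645 with DMSO) and BT-549 (0.549 with the combination, 0.548 with DMSO), and it was higher with the combination in the other 7 lines. The other rise lay upstream of SESN3, at -48635 bases (chr11:95279832-95281176, annotated as distal intergenic), with a fold of 0.70 ± 0.18 (adjusted p = 0.0272). It averaged 4.37 with the combination and 2.77 with DMSO in BT-20, and it was higher with the combination in every line but HCC1143, at 0.424 with the combination and 0.486 with DMSO. The falls were 7 peaks of DDIT4, 6 of SOD2 and 1 of KLF6 (chr10:3807265-3808132, -0.62, adjusted p = 0.0132). The SOD2 peaks that fell lay in exons or introns of the annotated transcripts, with the strongest test at chr6:159676646-159678332 (-0.80, adjusted p = 0.00621). The main SOD2 promoter peak (chr6:159692187-159694635) had -0.20 (adjusted p = 0.0877). Summed beyond 10 kb, PDK4 rose (0.45, adjusted p = 0.0452) and DDIT4 (-0.28, 0.0195) and SOD2 (-0.18, 0.0421) fell, 3 of 9 members with such peaks where 13.2% of 20735 sums passed. That count dropped to 1 without BT-549, HCC1143, HCC1937, MDA-MB-231, MDA-MB-468 or SUM-149PT. The SOD2 sum beyond 10 kb held its main promoter peak, and that of SESN1 held the peak over its other start. Neither is a sum of distal peaks alone.

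**Figure D5:**
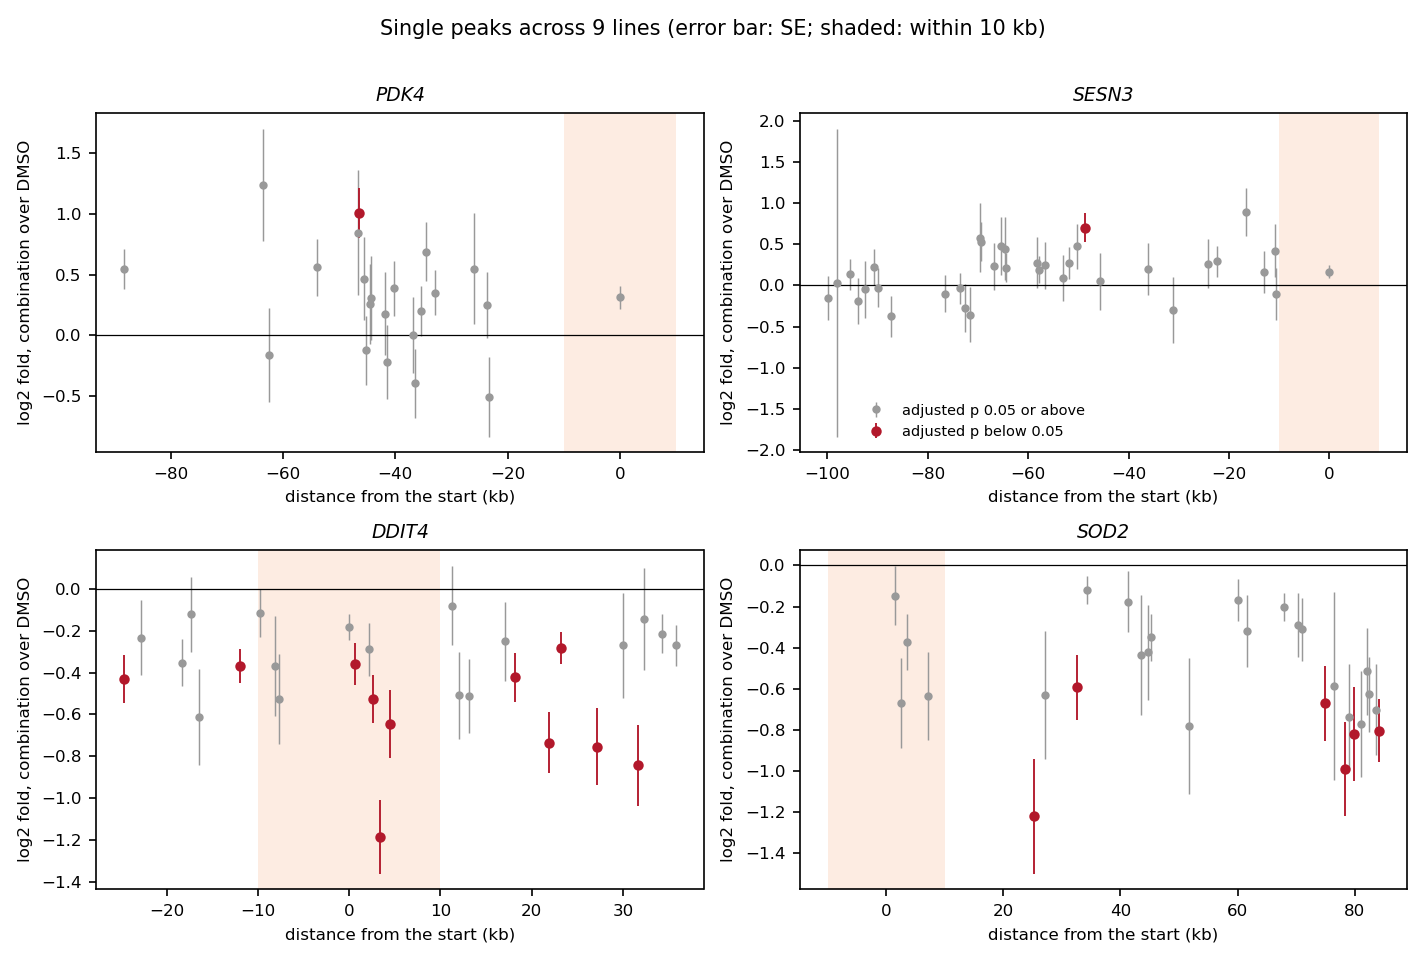
Log2 fold of the combination against DMSO across the 9 lines for single peaks of PDK4, SESN3, DDIT4 and SOD2 within 100 kb of the annotated start, against distance in kb. The 10 kb window is shaded and called peaks are red; for DDIT4 the called peaks lie on both sides of the start and all fell, and for PDK4 the called peak lies at -46411 bases with a fold of 1.01.

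Other genes of the pathway were counted from lists. Among 30 measured other FOXO targets 2 rose and 5 fell across the 9 lines, where 10.2% of all tested genes rose and 16.6% fell, so these counts are near those of other genes. Their median log2 fold was -0.04, against -0.02 for all tested genes. Those with the smallest p were PCK1, a gluconeogenic enzyme, which rose (0.68 ± 0.14 SE, adjusted p = 0.00865), and the autophagy genes MAP1LC3B (-0.14, 0.00578) and ULK1 (-0.18, 0.0235) and the translation inhibitor EIF4EBP1 (-0.11, 0.0228), which fell. Among 20 measured genes of the PI3K, AKT and FOXO axis 1 rose, FOXO4 itself (0.12, adjusted p = 0.0471), and 2 fell, the mTORC1 subunit RPTOR (-0.27, 0.00493) and TSC2 (-0.30, 0.0343), through which DDIT4 acts. Among 15 measured paralogs of the members CITED1 rose (0.25, adjusted p = 0.00841) and SOD1 (-0.52, 0.0168), RBL1 (-0.12, 0.0245) and ARRDC3 (-0.13, 0.0254) fell. Among 9 genes of the PRC2 axis KDM6B (-0.17, adjusted p = 0.00735) and RBBP4 (-0.72, 0.0106) fell. The windows of RBBP4 and SOD1 held few counts, with a mean log2 CPM of 0.82 and 2.08 against 8.53 for KDM6B. Of the marker lists, 0 of 12 epithelial genes rose and 2 fell, 0 of 10 mesenchymal genes changed by the edgeR test, and 4 of 12 fibroblast, endothelial and immune genes rose and 2 fell. The part of those marker shifts in the members' values was not tested.

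Likeness to the 3 members that passed was measured across the 26 groups, as Pearson's r over 19614 genes. The 26 groups come from 9 lines, so r mostly follows differences between lines. The genes most like PDK4 were LMO7DN (r = 0.919) and IL4 (0.911), those most like SESN3 were NME5 (0.889) and FCGRT (0.875), and those most like DDIT4 were ZNF211 (0.926) and MALAT1 (0.918). None of these 6 lies on the chromosome of its member. Of the 20 genes most like the 10 members, 2 for each and looked at after their values were seen, 7 lie on the chromosome of their member. These were WASF1 (r = 0.979, at 1.005 Mb) and SNX3 (0.935, at 0.723 Mb) for SESN1, TMEM65 (0.957, at 1.06 Mb) and ATAD2 (0.935, at 2.01 Mb) for TRIB1, BCLAF1 (0.934, at 3.08 Mb) and PNRC1 (0.925, at 50.3 Mb) for CITED2, and MIR5087 (0.941, at 2.34 Mb) for TXNIP.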

How the data were processed

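ATAC-seq reads were counted per peak by the authors, and the raw counts of 1 peak set shared by all libraries were deposited; the submitters' processing notes name MACS2 as a peak caller, featureCounts as a counter and the hg38 build. Which aligner was used, and whether duplicates were removed or reads shifted, is not given in the sources used here. Each deposited peak carries 1 gene symbol, a genomic class and a distance in bases to a start site, which was used to choose peaks. Peak coordinates are printed as deposited.

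Counts of peaks within 10 kb were summed per symbol. The members, gene lists and rules were chosen with earlier results of these data known. All 10 members are named; of peaks, the one nearest the start and those within 10 kb that passed; of each other list, up to 4 genes that passed. Replicate libraries of a group were summed, genes kept by edgeR's filter with a minimum count of 10, scaled by TMM, and tested with edgeR 4.0.16 (R 4.3.3, limma 3.58.1) by the quasi-likelihood test with line as a block; p-values were adjusted over all genes by Benjamini-Hochberg with a threshold of 0.05. Within lines the 3 libraries were replicates. The fits were tested on simulated data. Alternatives were other scalings, filters and windows, DESeq2 1.42.0, and leaving out each replicate number, each line and HCC1395 DMSO replicate 3. Libraries held 12292571 to 21459284 counts, and reads without molecular identifiers are not independent molecules.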

Additional observations from a re-analysis of the deposited data

Results flagged for a closer look

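In 40 groups of lines checked for a value far from the others, 3 had one, where chance gives about 1 in 20. The log2 fold of TRIB1 with the combination against DMSO was 0.189 in MDA-MB-231, above the other 8 lines. The log2 fold of KLF6 with tazemetostat against DMSO was 0.103 in MDA-MB-468, above the other 3 lines with that treatment; the libraries of the groups overlapped on the common scaling, which differs there by -0.1055 from the scaling within the line. The log2 fold of SESN1 with ipatasertib against DMSO was 0.0547 in SUM-149PT, above the other 3 lines, and did not pass the test.

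The response to the combination differed between the 9 lines for 9 members by the edgeR F test of line-by-treatment terms, with adjusted p of 4.23e-09 for PDK4, 0.0318 for SESN1, 6.39e-27 for SESN3, 2.21e-11 for DDIT4, 8.55e-07 for KLF6, 1.35e-05 for RBL2, 4.02e-12 for CITED2, 1.43e-10 for TRIB1 and 1.88e-12 for SOD2. The same test passed for 73.7% of all genes, and it rests on the spread between libraries.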

How the results depend on the processing

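Over 24 settings, 99 of 1173 values of members changed sign; all were of values that had not passed, 0 passed under the alternative, and the largest was 0.0989. The number of members called was 3 across the 9 lines (2 to 3 when a replicate or line was left out). Members called with tazemetostat numbered 6 with total counts, 4 with DESeq2, 1 with offsets that follow abundance, 1 within 1 kb and 1 within 50 kb. They numbered 1 to 4 with a replicate or line left out. The 1 called with offsets that follow abundance was none of DDIT4, RBL2 and SESN1, which did not pass there. With the combination across 4 lines they numbered 6 with total counts, 4 with offsets that follow abundance, 4 with DESeq2, 1 within 1 kb and 2 within 50 kb. They numbered 0 to 4 with a replicate or line left out. The 4 with offsets that follow abundance did not include DDIT4, so they held members that had not passed with the scaling used here. For the combination against ipatasertib they numbered 4 with total counts, 2 with offsets that follow abundance, 2 within 50 kb, 2 with DESeq2 and 0 to 1 with a replicate or line left out. Sums beyond 10 kb that were called numbered 1 to 3 with a replicate or line left out, and single peaks 3 to 7 with a replicate left out. Single peaks were not refitted without a line. The causes were not tested. Adding a neighbour's peaks was an alternative chosen after seeing the data. Values whose sign changed under the combination across 9 lines were SESN1 0.0236, KLF6 0.0211, CITED2 0.0528 and TRIB1 0.0644 with offsets that follow abundance, KLF6 0.0377 and CITED2 0.0146 within 1 kb, SESN1 0.0239 within 50 kb, and CITED2 0.0354 with a neighbour's peaks added. With a replicate or line left out, SESN1 ran over -0.0382 to 0.00490, TXNIP ran over -0.0339 to 2.40e-05, CITED2 ran over -0.0121 to 0.0471 and TRIB1 ran over -0.0324 to 0.00393. Values whose sign changed under tazemetostat were TRIB1 -0.00729 with size factors, TRIB1 -0.0950 with total counts, KLF6 0.0989 and CITED2 0.0272 with offsets that follow abundance, TRIB1 -0.000780 with a minimum count of 30, KLF6 0.0138 and TRIB1 -0.0137 within 1 kb, TRIB1 -0.0272 within 50 kb, and TRIB1 -0.00773 with DESeq2. With a replicate or line left out, KLF6 ran over -0.0258 to 0.0180 and TRIB1 ran over -0.0305 to 0.0401. Values whose sign changed under ipatasertib were RBL2 -0.00307 with total counts, SESN1 -0.00896 and RBL2 -0.0200 with offsets that follow abundance, TRIB1 0.0122 within 1 kb, TXNIP 0.0244 and SOD2 0.0170 within 50 kb, and CITED2 0.0251 with a neighbour's peaks added. With a replicate or line left out, SESN1 ran over -0.0118 to 0.0255, TXNIP ran over -0.0407 to 0.000780, RBL2 ran over -0.0196 to 0.0219, CITED2 ran over -0.0303 to 0.00771 and TRIB1 ran over -0.0300 to 0.00938. A fit with the replicate number as a block gave 35 calls within lines, as without it; same-numbered libraries correlated by -0.135 to 0.0493 over 27 pairs, with 0 above 0.1 and 10 of 27 best with their own number, so the numbers do not pair the samples. Single peaks hold few counts, which limits what their tests can show.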
